A study of Mus musculus with 12 samples.

Results

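A set of 10 heat shock and chaperone genes was followed across the series: Hspa1a, Hspa1b, Hspa8, Dnajb1, Hsph1, Hsp90aa1, Hspb1, Bag3, Hspd1 and Hspe1. They were taken from the deposited table by gene symbol, so 10 of the 17738 genes with values were members, and all 10 passed the filter of at least 1 FPKM (fragments per kilobase of transcript, scaled to the mapped fragments of the library) in at least 3 libraries, which left 10764 genes tested. The libraries came from female Kunming mice, an outbred strain, aged 6 to 8 weeks and treated for 7 days, with 3 mice in each group. The colistin + 7-HC group received colistin, a polymyxin antibiotic, at 15 mg/kg/day and 7-hydroxycoumarin (7-HC), a plant coumarin, at 50 mg/kg/day. The colistin group received the same dose of colistin alone, the 7-HC group the same dose of 7-HC alone, and the control group saline. The study's methods give DMSO as the solvent of 7-HC, so 7-HC and its solvent cannot be told apart here.

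The libraries are labelled kidney, and the label went against the marker genes. The summed level of 12 hepatocyte markers was 50058 to 59317 FPKM in the colistin + 7-HC group, 45242 to 48862 in the colistin group, 100119.7 to 110885 in the 7-HC group and 83745 to 96502 in the control group. The 9 proximal tubule markers summed to between 0.06 and 0.25 FPKM in every library, with Slc5a2 and Kap blank. The values below therefore describe the libraries labelled kidney, not a tissue known to be kidney. In such bulk samples, fewer cells of a type and less RNA per cell cannot be told apart. The summed FPKM per library ranged from 517984 to 597354, and the number of reads behind each library is not given in the sources used here.

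Heat shock proteins are molecular chaperones, which bind unfolded or partly folded proteins and help them fold, refold or reach degradation. In the cytosol, HSP70 proteins take up client proteins with the help of J-domain co-chaperones and nucleotide exchange factors, HSP90 finishes the folding of kinases and steroid receptors, and small heat shock proteins hold unfolded proteins in a soluble state. Under stress, the transcription factor HSF1 binds heat shock elements, which are inverted repeats of the unit GAA, and induces many of these genes together. In mouse liver, the inducible members are also known to vary with body temperature, feeding and time of day. Hspd1 and Hspe1 belong to the same stress response but encode HSP60 and HSP10, the chaperonin of the mitochondrial matrix, so 8 of the 10 members encode cytosolic proteins.

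On build GRCm38.p6, the near-identical genes Hspa1a (chr17:34969359-34972156) and Hspa1b (chr17:34956429-34959238) lie side by side on the minus strand of chromosome 17, and Hspd1 (chr1:55077833-55088243, minus strand) and Hspe1 (chr1:55088148-55091317, plus strand) lie head to head on chromosome 1. Hsph1 and Hspb1 are on chromosome 5, Bag3 on 7, Dnajb1 on 8, Hspa8 on 9 and Hsp90aa1 on 12. Windows around transcription starts show how alike or unlike the members are at the DNA level. RefSeq windows for build GRCm38.p6, from 250 bases before to 50 bases after a start, were held for 8 of the 10 members, in 11 windows. They were searched on both strands for a pair of inverted units (GAANNTTC or TTCNNGAA) and for 3 units in a row (a pair extended at the same spacing by a unit inverted again, so that every such run contains the pair). A pair was found in a window of 7 members, against 15.1% of all 32851 windows, and 3 units in a row in a window of 3 members (Hsph1, Hspd1 and Hspe1), against 0.603% of all windows. Dnajb1 had no match in its windows. Some members had more than 1 window, so a count of members and a share of single windows are not like for like. Nor are the members separate sequences. Hspa1a and Hspa1b hold the same match, and the 3-unit matches of Hspd1 and Hspe1 are the same stretch read on both strands. A match is a run of letters and not a measured binding site. The first pair of sequences is shown because Hspa1a and Hspa1b are near-identical copies, and the other sequences because the pattern of these genes across libraries is described below. Each is written 5′ to 3′ on the strand of its gene, with the matches in capitals. The Hspa1b sequence is chr17:34959239-34959388 and the Hspa1a sequence chr17:34972157-34972306, both on the minus strand and both ending at the base before the start. The others are chr5:135887801-135887830 (plus strand) for Hspb1, chr5:149636351-149636380 (minus strand) for Hsph1, chr1:55088053-55088082 (plus strand) for Hspe1 and chr7:128523603-128523632 (plus strand, after the start) for Bag3. The Hsph1 stretch holds a separate pair before the starts of its windows, at -33 and -54. The 3-unit match of Hsph1 lies after these starts, at 36 and 15, and is not printed.
Hspa1b: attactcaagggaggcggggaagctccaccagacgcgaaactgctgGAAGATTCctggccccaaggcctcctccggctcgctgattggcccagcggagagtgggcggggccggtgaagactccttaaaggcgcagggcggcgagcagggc
Hspa1a: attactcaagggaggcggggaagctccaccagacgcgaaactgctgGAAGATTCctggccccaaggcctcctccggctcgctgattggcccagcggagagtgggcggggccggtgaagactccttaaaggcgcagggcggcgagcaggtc
Hspb1: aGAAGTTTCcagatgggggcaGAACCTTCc
Hsph1: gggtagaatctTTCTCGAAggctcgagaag
Hspe1: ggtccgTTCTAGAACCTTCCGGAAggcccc
Bag3: ccaagttctctggatgggaccaGAAGTTTC

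The Hspa1b and Hspa1a sequences differed at 1 of these 150 bases and at 3 of the 250 bases before the start. The likeness extends into the transcripts. Of all 50-base stretches, 58.8% of those of the Hspa1a transcript were also in Hspa1b, and 62.3% of those of Hspa1b were in Hspa1a, while none of those of the Hspa8 transcript were in Hspa1b. Reads from the shared stretches cannot be assigned to one copy, so the split between Hspa1a and Hspa1b is uncertain. The Hspe1 sequence above lies upstream of Hspe1 and inside the annotated span of Hspd1. The same inverted units, read on the other strand, fall in 1 of the windows of Hspd1, that of a second start, while the window at the annotated outer end of Hspd1 had no match. The annotated spans of Hspd1 and Hspe1 overlap by 96 bases.

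Hspa1a and Hspa1b encode the stress-inducible cytosolic HSP70 and had the widest range among the HSP70 members. Hspa1b had 2.07, 2.98 and 3.04 FPKM in the colistin + 7-HC libraries, 5.69, 33.6 and 2.54 FPKM in the colistin libraries, 9.22, 2.21 and 6.61 FPKM in the 7-HC libraries and 7.80, 22.7 and 3.53 FPKM in the control libraries, in the order of the replicate numbers. Hspa1a had 0.35, 0.25 and 0.60 FPKM in the colistin + 7-HC libraries, 1.09, 8.97 and 0.68 FPKM in the colistin libraries, 2.53, 0.55 and 1.48 FPKM in the 7-HC libraries and 2.06, 11.2 and 0.83 FPKM in the control libraries. Colistin library 2 and control library 2 stood above the 10 other libraries for both copies. The ratio of highest to lowest over all libraries was 16.3 for Hspa1b and 44.7 for Hspa1a. Within the colistin group alone it was 13.2 for each copy, whereas within the colistin + 7-HC group it was 1.47 for Hspa1b and 2.40 for Hspa1a. The ratio of Hspa1b to Hspa1a lay between 2.03 and 11.9 in the 12 libraries, with a median of 4.13.

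Hspa8 encodes HSC70, the constitutive cytosolic HSP70, and its level per transcript length was 31.2 to 244 times that of Hspa1b within the same library. It had 353, 459.9 and 445 FPKM in the colistin + 7-HC libraries, 451, 1049.7 and 621 FPKM in the colistin libraries, 841, 366 and 502 FPKM in the 7-HC libraries and 437, 816 and 416 FPKM in the control libraries. The highest 3 of the 12 values were again 1 library each of the colistin, 7-HC and control groups, and the 4 groups overlapped.

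Dnajb1 encodes a J-domain protein (HSP40) that delivers clients to HSP70 and stimulates its ATPase. Its level was 4.95, 4.98 and 4.31 FPKM in the colistin + 7-HC libraries, 7.08, 14.2 and 7.10 FPKM in the colistin libraries, 10.9, 5.36 and 6.87 FPKM in the 7-HC libraries and 6.25, 13.3 and 7.35 FPKM in the control libraries. All 3 colistin + 7-HC libraries were below all libraries of the other groups. Hsph1 encodes HSP110 (HSP105), a nucleotide exchange factor of HSP70. It had 4.69, 5.40 and 5.05 FPKM in the colistin + 7-HC libraries, 15.1, 28.7 and 15.8 FPKM in the colistin libraries, 17.6, 3.37 and 6.82 FPKM in the 7-HC libraries and 6.18, 17.7 and 3.91 FPKM in the control libraries. Every colistin library was above every colistin + 7-HC library for Hsph1, but 7-HC library 1 and control library 2 lay within the range of the colistin libraries.

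Hsp90aa1 encodes HSP90 alpha, the more stress-inducible of the cytosolic HSP90 proteins. It had 26.2, 27.2 and 24.6 FPKM in the colistin + 7-HC libraries, 58.5, 108.5 and 48.0 FPKM in the colistin libraries, 60.5, 17.7 and 29.9 FPKM in the 7-HC libraries and 27.4, 67.6 and 22.0 FPKM in the control libraries. The order of the libraries was close to that of Hsph1, with the colistin libraries above the colistin + 7-HC libraries without overlap. Hspb1 encodes a small heat shock protein (HSP25 in mouse) that binds unfolded proteins and actin. It was at 3.53, 2.77 and 1.01 FPKM in the colistin + 7-HC libraries, 1.57, 19.4 and 1.61 FPKM in the colistin libraries, 5.27, 0.50 and 0.79 FPKM in the 7-HC libraries and 1.88, 5.22 and 1.11 FPKM in the control libraries. Colistin library 2 held a value of its own for Hspb1, 12.4 times the lowest colistin library, and the groups overlapped.

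Bag3 encodes a nucleotide exchange factor that links HSP70 to small heat shock proteins and to selective autophagy. It had 11.5, 14.2 and 12.2 FPKM in the colistin + 7-HC libraries, 23.4, 23.8 and 17.8 FPKM in the colistin libraries, 12.7, 9.32 and 10.8 FPKM in the 7-HC libraries and 9.61, 14.8 and 9.03 FPKM in the control libraries. The 3 colistin libraries were above the 9 others, and the other 3 groups overlapped. The mean was 12.6 ± 1.36 FPKM in the colistin + 7-HC group, 21.7 ± 3.32 in the colistin group, 11.0 ± 1.71 in the 7-HC group and 11.2 ± 3.20 in the control group (SD, n = 3 each).

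Hspd1 and Hspe1, the mitochondrial chaperonin and its lid, were the least variable members over the 12 libraries together with Bag3 and Hspa8. Hspd1 had 102.5, 94.5 and 124 FPKM in the colistin + 7-HC libraries, 99.9, 121 and 86.7 FPKM in the colistin libraries, 125, 136 and 162 FPKM in the 7-HC libraries and 140.2, 148 and 142 FPKM in the control libraries. Every library given colistin was below every library not given it. Hspe1 had 82.5, 81.6 and 89.0 FPKM in the colistin + 7-HC libraries, 80.7, 134 and 76.2 FPKM in the colistin libraries, 179 (library 1), 108 and 114 FPKM in the 7-HC libraries and 103, 123 and 107 FPKM in the control libraries. Colistin library 2 was the only library given colistin that reached the range of the others for Hspe1. The ratio of Hspd1 to Hspe1 lay between 0.70 and 1.42, with the lowest ratios, 0.70 and 0.901, in 7-HC library 1 and colistin library 2.

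**Figure D1:**
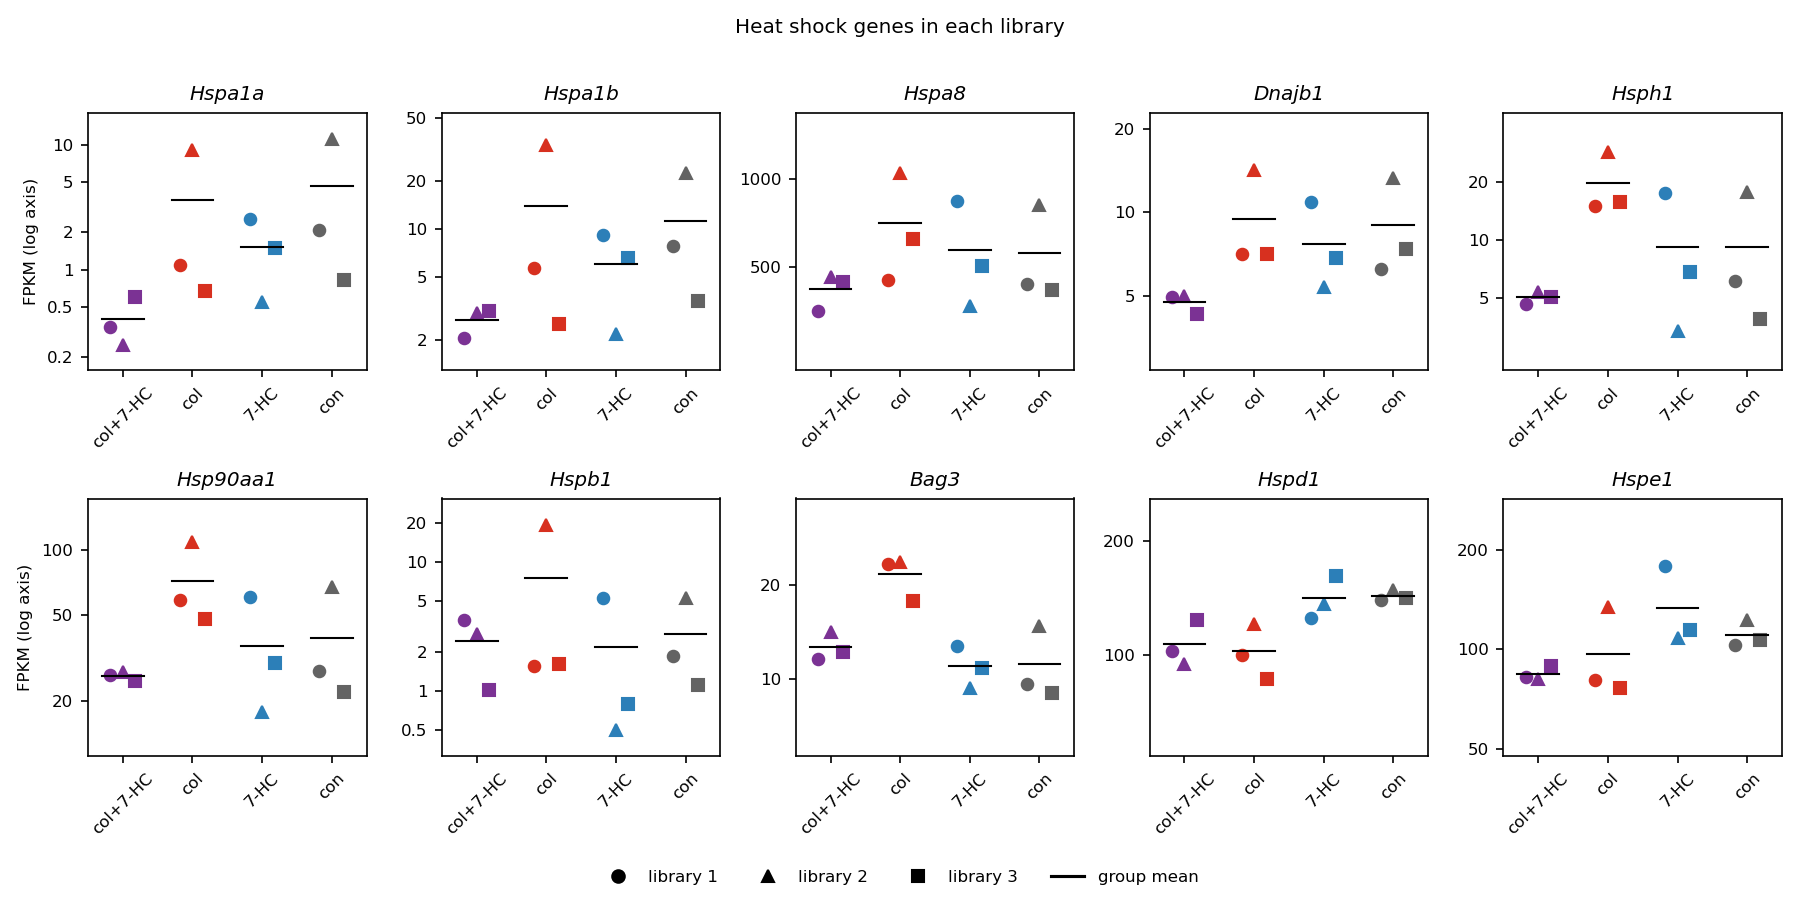
Level of each of the 10 heat shock genes in each library, in FPKM on a log axis, with 1 panel per gene and the groups colistin + 7-HC (col+7-HC), colistin (col), 7-HC and control (con) from left to right. Marker shape gives the replicate number and the black line the mean of the group; colistin library 2 (triangle), 7-HC library 1 (circle) and control library 2 (triangle) stand at the top of their groups for 9 of the 10 genes, and the colistin + 7-HC libraries lie close together for Hsph1, between 4.69 and 5.40.

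The same 3 libraries carried the high values of nearly all members. Colistin library 2 and control library 2 held the highest value of their groups for all 10 members, and 7-HC library 1 did for 9, the exception being Hspd1. All 3 libraries were thus the highest of their groups for 9 of the 10 members, whereas 860 of the 10764 genes tested (7.99%) had this pattern. Colistin library 2 was the highest of all 12 libraries for 7 members. Averaged over the 8 cytosolic members, the deviation from the gene's mean over all libraries, on the log2(FPKM + 0.5) scale, was 1.69 in colistin library 2, 0.64 in 7-HC library 1 and 1.12 in control library 2. The other libraries lay between -0.61 and -0.46 in the colistin + 7-HC group, at 0.15 and -0.05 in the colistin group, at -0.91 and -0.25 in the 7-HC group and at -0.16 and -0.58 in the control group. The members were chosen with these libraries' values known, so the count is a description.

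The members thus differed widely within groups. The standard deviation of log2(FPKM + 0.5) within groups was 1.31 for Hspb1, 1.21 for Hspa1a, 1.21 for Hspa1b, 0.81 for Hsph1, 0.68 for Hsp90aa1, 0.52 for Hspa8 and 0.46 for Dnajb1, against a median of 0.20 over all genes tested. These 7 members were above the 90th percentile of all genes, at percentiles from 92.1 (Dnajb1) to 99.5 (Hspb1). Hspe1 was at 0.31 (percentile 79.4), Bag3 at 0.25 (percentile 69.1) and Hspd1 at 0.18 (percentile 42.2). Among genes of like mean level, within 0.5 on the log2 scale, the percentiles of the 10 members ran from 39.4 for Hspd1 to 99.6 for Hspa1b.

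Some other measures moved with these libraries and others did not. Over all genes tested, colistin library 2 held the highest value of its group for 48.9%, above the other colistin libraries, while 7-HC library 1 did so for 38.6%, against 38.4% for 7-HC library 3, and control library 2 for 33.9%, against 42.5% for control library 3. The summed level of 10 macrophage markers was 336 FPKM in colistin library 2, against 149 and 268 FPKM in the other colistin libraries, and 327 FPKM in control library 2, against 215 and 235 FPKM in the other control libraries, but it was 157 FPKM in 7-HC library 1, against 158 and 134 FPKM. The summed level of 8 endothelial markers was highest in the same 3 libraries of these groups, at 97.9 FPKM in colistin library 2, 98.0 FPKM in 7-HC library 1 and 86.9 FPKM in control library 2. The summed level of 10 neutrophil markers was lowest of its group in colistin library 2 (31.7 FPKM, against 54.8 and 55.3 FPKM) and in control library 2 (8.55 FPKM, against 8.72 and 11.8 FPKM), and was 9.07 FPKM in 7-HC library 1, against 8.17 and 11.1 FPKM. The hepatocyte sum was highest of its group in colistin library 2 and 7-HC library 1 and lowest in control library 2. The part of these cell types in the members' values was not tested.

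**Figure D2:**
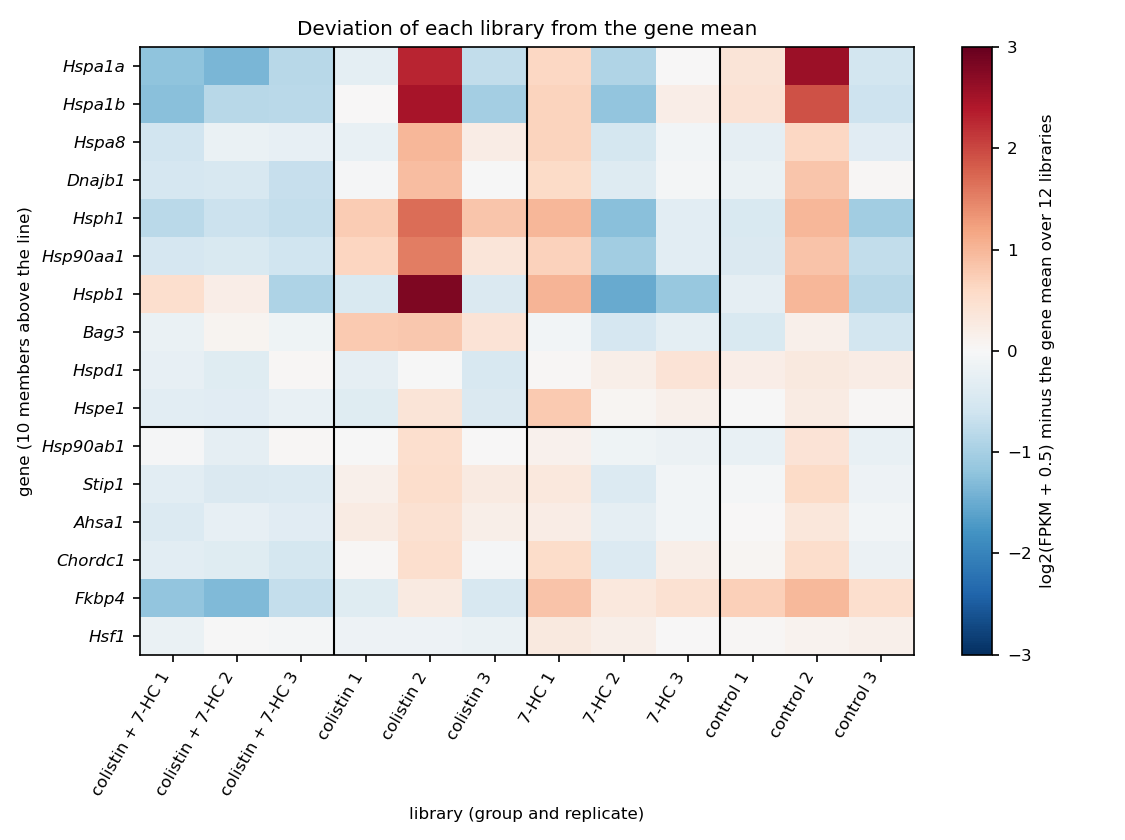
Deviation of log2(FPKM + 0.5) in each library from the gene's mean over the 12 libraries, for the 10 members (above the line) and 6 other genes of the heat shock system (below it), with libraries in columns by group. Red is above and blue below the mean; the columns of colistin 2, 7-HC 1 and control 2 are red for most genes, whereas the rows of Hsf1 and Hspd1 are pale throughout.

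For the question of what colistin did without 7-HC, the colistin group was compared with the control group with limma on log2(FPKM + 0.5), fitted over all 12 libraries, and a gene was called at an adjusted p (Benjamini-Hochberg over the 10764 genes) under 0.05. Bag3 was higher and Hspd1 lower in the colistin group, and the other 8 members were not called. Thus 2 of the 10 members were called, against 32.7% of all genes tested. The colistin and control libraries did not overlap for the same 2 members, against 46.9% of all genes. With only 10 members, which moved together across libraries, these counts are a description and show no difference from all genes. The Bag3 estimate was 0.95 on the log2 scale (SE 0.19, adjusted p = 0.00317), and Bag3 stayed called without any 1 library, with log2 fold changes of 0.82 to 1.16. That of Hspd1 was -0.50 (SE 0.15, adjusted p = 0.0286). The call of Hspd1 was lost, with adjusted p from 0.0633 to 0.112, when control library 1, 2 or 3 or colistin library 1 or 3 was left out, and the log2 fold change then lay between -0.51 and -0.38. In a 3 against 3 comparison the exact permutation test cannot give a p below 0.1, which was the value for both genes (two-sided).

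Hsph1 and Hsp90aa1 had larger estimates that did not pass the test. Hsph1 averaged 19.9 ± 7.66 FPKM in the colistin group and 9.27 ± 7.41 FPKM in the control group (SD, n = 3 each). The log2 fold change was 1.26 with a 95% interval of 0.04 to 2.49 (adjusted p = 0.106). Hsp90aa1 averaged 71.7 ± 32.4 FPKM in the colistin group and 39.0 ± 24.9 FPKM in the control group, and the log2 fold change was 0.96 with an interval of -0.08 to 1.99 (adjusted p = 0.145). Both depended on control library 2. Without it, the estimate was 1.84 for Hsph1 (adjusted p = 0.0248) and 1.44 for Hsp90aa1 (adjusted p = 0.0367), so that both were called, against 2700 of the 10764 genes. Control library 2 held the highest control value for all 10 members, so leaving it out lowers the control mean and removes spread by construction. The calls without it are therefore no support for the estimates. With colistin library 2, 7-HC library 1 and control library 2 all left out, a choice made after seeing the values and one that takes out the highest values of these groups, 5 members were called: Hsph1 (1.55), Hsp90aa1 (1.10) and Bag3 were higher, and Hspd1 and Hspe1 (-0.42) were lower. In that setting 33.5% of all genes were called. It removes spread by construction, so its calls are no support for the estimates. For the HSP70 copies the intervals were too wide to show even large changes, from -1.90 to 1.72 for Hspa1b around a log2 fold change of -0.09, and from -2.22 to 1.44 for Hspa1a around -0.39. The summed values of the copies gave -0.19 (adjusted p = 0.893). The remaining members had log2 fold changes of 0.33 (Hspa8), 0.07 (Dnajb1), 0.66 (Hspb1) and -0.23 (Hspe1). The median of the 10 members was 0.20, against -0.07 over all genes tested. Some cell type markers moved with the same comparison. The 10 neutrophil markers summed to 31.7 to 55.3 FPKM in the colistin group and 8.55 to 11.8 FPKM in the control group. Of the 6 tested, 3 were called higher and 0 lower. S100a8 and Retnlg stayed under 1 FPKM in every library without colistin (at most 0.75 and 0.37 FPKM). Their high values under colistin let them into the test, so they are no support for a rise. Of the 12 hepatocyte markers, 8 were called lower, 1 higher and 3 neither way. Fgb averaged 12162 FPKM in the colistin group and 2764 FPKM in the control group, against the direction of most of these markers. Alb, for example, averaged 20812 FPKM in the colistin group and 50716 FPKM in the control group. Of all genes tested, 32.7% were called. The part of these cell types in the members' values was not tested.

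For the same question on the background of 7-HC, the colistin + 7-HC group was compared with the 7-HC group. No member was called by limma, against 31.1% of all genes tested, and 2 members (Hspe1 and Hspd1) had an unadjusted p under 0.05, against 42.1% of all genes. Hspe1 averaged 84.4 ± 4.09 FPKM in the colistin + 7-HC group and 134 ± 39.0 FPKM in the 7-HC group (log2 fold change -0.63, SE 0.23, adjusted p = 0.0568). Hspd1 averaged 107 ± 15.2 FPKM in the colistin + 7-HC group and 141 ± 18.9 FPKM in the 7-HC group (log2 fold change -0.40, SE 0.15, adjusted p = 0.069). Both lay close to the threshold, and both were called without colistin library 2, which is in neither group and enters through the shared error, at adjusted p of 0.0177 for Hspe1 and 0.0431 for Hspd1. Hspd1 was also called without 7-HC library 1 (adjusted p = 0.0493) or colistin + 7-HC library 3 (adjusted p = 0.0449), and Hspe1 without 7-HC library 2 (adjusted p = 0.05 after rounding). Of the 10764 genes, 3603 were called without colistin library 2 and 3078 without 7-HC library 1. Without colistin + 7-HC library 3 the number was 2692, and without 7-HC library 2 it was 2696. The groups did not overlap for 3 members, all lower in the colistin + 7-HC group (Dnajb1, Hspd1 and Hspe1), against 46.5% of all genes without overlap and 24.4% lower without overlap. Bag3, called in the other colistin comparison, had a log2 fold change of 0.20 here (95% interval -0.22 to 0.62). The median of the members was -0.47, against -0.01 over all genes tested, with 8 of the 10 estimates negative. As the members moved together across libraries, this count is a description. With the 3 high libraries left out, 3 members were called, Hspb1 at 1.25, Hspd1 at -0.48 and Hspe1 at -0.40, while the estimates of Hsph1 and Hsp90aa1 were 0.06 and 0.17. The share of all genes called in that setting was 31.6%. Its calls are no support for the estimates, since it removes spread by construction.

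With the effect of colistin averaged over both 7-HC states, 3 of the 10 members were called, against 47.6% of all genes tested. Bag3 was higher in the mice given colistin (log2 fold change 0.57, SE 0.14, adjusted p = 0.0047), and Hspd1 (-0.45, SE 0.11, adjusted p = 0.00563) and Hspe1 (-0.43, SE 0.16, adjusted p = 0.0456) were lower. The exact permutation test within 7-HC states, with 400 arrangements and a smallest possible p of 0.005, gave p = 0.015 for Bag3, p = 0.005 for Hspd1 and p = 0.035 for Hspe1 (two-sided, unadjusted). The calls of Bag3 and Hspd1 held without any 1 library. The call of Hspe1 was lost, with adjusted p from 0.0615 to 0.106, on leaving out any 1 library other than colistin 2, 7-HC 2 or 7-HC 3. Without the 3 high libraries 5 members were called, these 3 with Hsph1 (0.81) and Hsp90aa1 (0.63), against 47.2% of all genes. Such calls are no support, since spread was removed by construction. For Bag3 the averaged effect combines estimates of 0.95 without 7-HC and 0.20 with it.

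**Figure D3:**
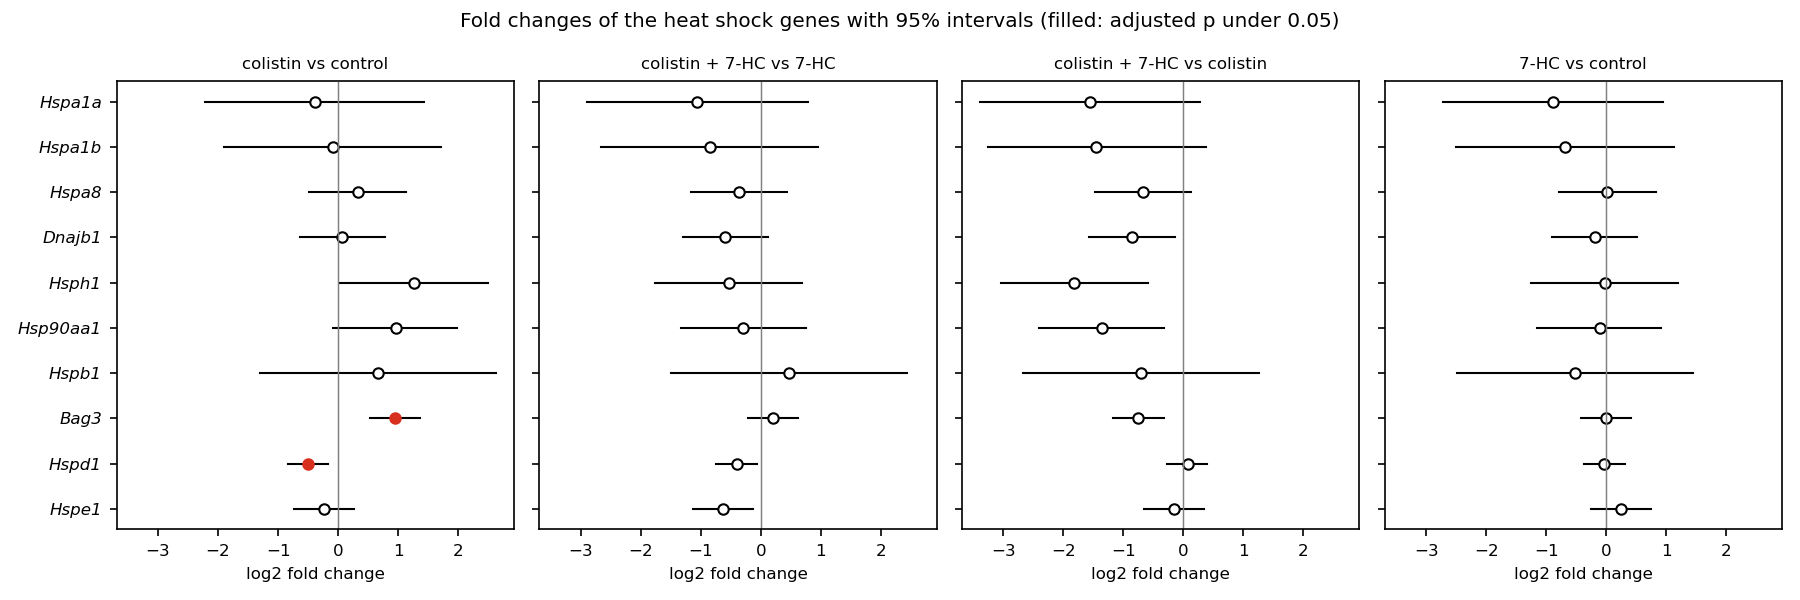
Log2 fold change of each member on the log2(FPKM + 0.5) scale with its 95% interval from limma, in 4 comparisons, each named with the group on top of the fold change first. Filled points passed an adjusted p under 0.05, which only Bag3 (0.95) and Hspd1 (-0.50) did, both in colistin against control; the intervals of Hspa1a, Hspa1b and Hspb1 are the widest.

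The study asked what 7-HC does in mice given colistin, and for this the colistin + 7-HC group was compared with the colistin group. The estimates of 9 of the 10 members were negative, that of Hspd1 being 0.07, and the median of the members was -0.80, against 0.02 over all genes tested. The members moved together: the same 3 libraries of the other groups held the highest values of their groups for 9 of the 10. Counts of members, here and in the other comparisons, are therefore not separate pieces of evidence. No member was called by limma, and of all genes tested 0.00929% (1 gene) were called. At an unadjusted p under 0.05 stood 4 members, against 12.4% of all genes: Bag3 (log2 fold change -0.75, SE 0.19, adjusted p = 0.188), Hsph1 (-1.82, SE 0.56, adjusted p = 0.253), Hsp90aa1 (-1.36, SE 0.47, adjusted p = 0.294) and Dnajb1 (-0.85, SE 0.32, adjusted p = 0.324). The groups did not overlap for 5 members (these 4 and Hspa1a), all lower in the colistin + 7-HC group, against 6.99% of all genes that were lower without overlap and 16.9% without overlap in either direction. The exact permutation p was 0.1 for each of the 5, the smallest possible. Hspa1a was at most 0.60 FPKM in the colistin + 7-HC group and passed the filter only through groups where it was higher. Its lack of overlap is therefore no support for a fall. Hspb1, Hspa8 and Hspa1b had estimates of -0.71, -0.67 and -1.45 with overlapping groups. Colistin library 2 raised the error of this comparison as well as the mean of the colistin group: without it 470 genes (4.37%) were called over the whole table, but none of the 10 members was. With each library left out in turn, the estimate of Hsph1 lay between -1.98 and -1.52, that of Hsp90aa1 between -1.60 and -1.02 and that of Bag3 between -0.88 and -0.68. With all 3 high libraries left out, 3 members were called lower, Hsph1 at -1.52 (adjusted p = 0.028), Hsp90aa1 at -1.02 (adjusted p = 0.0386) and Bag3 at -0.68 (adjusted p = 0.0433), with 3 colistin + 7-HC libraries against 2 colistin libraries. In that setting 4.04% of all genes were called, and 1.16% were called lower. The libraries were left out because the members were high in them, which removes spread by construction. The calls of that setting are therefore no support for the estimates.

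The 7-HC group was compared with the control group to see what 7-HC did without colistin. No member was called by limma, against 0.167% of all genes tested, none had an unadjusted p under 0.05 (9.59% of all genes had), and the groups overlapped for all 10, against 15.9% of all genes without overlap. Hsph1, for example, averaged 9.27 ± 7.44 FPKM in the 7-HC group and 9.27 ± 7.41 FPKM in the control group (SD, n = 3 each), with a log2 fold change of -0.02 (SE 0.56). The interval was narrow for Bag3, from -0.42 to 0.42, and Hspd1, from -0.37 to 0.31. It was from -2.72 to 0.95 for Hspa1a, so a change of several fold was not detectable. With 7-HC averaged over both colistin states, no member was called by limma and 0.0% of all genes were, and 4 members (Bag3, Hsph1, Dnajb1 and Hsp90aa1) had an unadjusted p under 0.05, against 10.7% of all genes, with log2 fold changes of -0.38, -0.92, -0.52 and -0.74. Without colistin library 2, 200 genes (1.86%) were called for this averaged effect, none of them a member.

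Between the colistin + 7-HC group and the control group, no member was called by limma, against 26.1% of all genes tested, and 3 members (Hspa1a, Dnajb1 and Hspd1) had an unadjusted p under 0.05, against 38.4% of all genes. The groups did not overlap for 5 members, all lower in the colistin + 7-HC group (Hspa1a, Hspa1b, Dnajb1, Hspd1 and Hspe1), against 48.3% of all genes without overlap and 28.8% lower without overlap. Hspa1b averaged 2.70 ± 0.544 FPKM in the colistin + 7-HC group and 11.3 ± 10.1 FPKM in the control group (SD, n = 3 each), and the 95% interval around its log2 fold change of -1.54 ran from -3.35 to 0.28. Dnajb1 averaged 4.75 ± 0.378 FPKM in the colistin + 7-HC group and 8.97 ± 3.80 FPKM in the control group (log2 fold change -0.78, SE 0.32, adjusted p = 0.0988). Hspa1a, at most 0.60 FPKM in the colistin + 7-HC group, passed the filter only through the other groups, so its values are no support for a fall. This comparison shares its libraries with those above. Hspd1 was called without 7-HC library 1, colistin library 2 or colistin + 7-HC library 3, and Hspa1a without colistin library 2. In these settings 3080, 3088 and 2193 of the 10764 genes were called. 7-HC library 1 and colistin library 2 are in neither group and enter only through the shared error, so calls without them are no separate support. With the 3 high libraries left out, which removes spread by construction and gives no support, the called members were Dnajb1 and Hspe1, against 25.4% of all genes.

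Whether colistin acted differently with and without 7-HC was tested with the interaction term. No member was called by limma, against 0.297% of all genes tested. Bag3 (-0.75, SE 0.27, adjusted p = 0.314) and Hsph1 (-1.79, SE 0.79, adjusted p = 0.419) had an unadjusted p under 0.05, against 11.5% of all genes, and 9 of the 10 interaction estimates were negative, with a median of -0.68 against 0.06 over all genes. The number of negative estimates is a description, because the members moved together across libraries. With no call, a difference between the Bag3 estimates in the pair of colistin comparisons is not shown.

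Other genes of the chaperone system gave a background for the members. Over 8 lists, 77 genes passed the filter, and 19 of them were called between the colistin and control groups, 6 higher and 13 lower (24.7%). This is below the 32.7% of all genes tested, of which 1369 were called higher and 2146 lower. The counts of the single lists stand against the same share. Among the heat shock factors, Hsf2 (log2 fold change -0.68, adjusted p = 0.0224) and Hsf4 (-0.64, adjusted p = 0.0366) were lower in the colistin group, and Hsf1, the main activator of the heat shock response, had an estimate of -0.27 (adjusted p = 0.0643). The list holds 5 genes, of which 4 were tested, with 0 higher and 2 lower. In the other HSP70 family genes 0 of 4 were higher and 2 lower, namely Hspa14 (-0.40) and Hspa4 (-0.36), an HSP110-type exchange factor like Hsph1. None of the 9 tested HSP70 exchange and triage factors was higher, and 1 was lower, Bag2 (-0.72, adjusted p = 0.0113), which restrains the ubiquitin ligase CHIP. Bag2 reached 1 FPKM only in libraries not given colistin, up to 1.47 FPKM. It lay at 0.30 to 0.49 FPKM in those given colistin. It thus passed the filter only through groups where it was high, so its call is no support for a fall.

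Of the 14 tested genes of the HSP90 list, 0 were higher and 1 lower in the colistin group (all genes tested: 32.7% called). This was Fkbp4, the steroid receptor immunophilin FKBP52, with an estimate of -0.92 (adjusted p = 0.00975), and of -1.61 (adjusted p = 0.000447) in the colistin + 7-HC group against the 7-HC group. Hsp90ab1, the constitutive HSP90 beta, had an estimate of 0.17 (adjusted p = 0.544), and the ratio of Hsp90aa1 to Hsp90ab1 ranged from 0.0567 to 0.227 over the libraries. Of the 14 J-domain genes 3 were higher and 2 lower. Dnajb14 (0.89, adjusted p = 0.000312), an endoplasmic reticulum J protein, and Dnajb5 (0.53, adjusted p = 0.00541) were the leading rises, and Dnajc5 (-0.42), the cysteine string protein of secretory vesicles, and Dnajc7 (-0.33) were lower. Among 4 tested small heat shock proteins, Hspb8, the partner of Bag3 in selective autophagy, was higher (0.77, adjusted p = 0.00795) and Hspb6 was lower (-1.17, adjusted p = 0.00119). The cytosolic chaperonin TRiC and its partner prefoldin had 1 of 14 lower, Cct8 (-0.35), and 0 higher. In the mitochondrial proteostasis list 2 of 14 were higher, Grpel2 (0.62), an exchange factor of the mitochondrial HSP70, and Yme1l1 (0.37), an inner membrane protease, and 3 were lower, with Trap1, the mitochondrial HSP90, at -0.62 (adjusted p = 0.00135) and Afg3l2, a further inner membrane protease, at -0.46 as the largest falls. In the colistin + 7-HC group against the 7-HC group, 17 of the 77 genes were called, 6 higher and 11 lower (22.1%). This is below the 31.1% of all genes tested. Hspb6 was again lower at -1.12 and Trap1 at -0.40. Hspb8 had an estimate of -0.18 there (adjusted p = 0.483). In the colistin + 7-HC group against the colistin group limma called none of the 77, against 0.00929% of all genes tested.

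**Figure D4:**
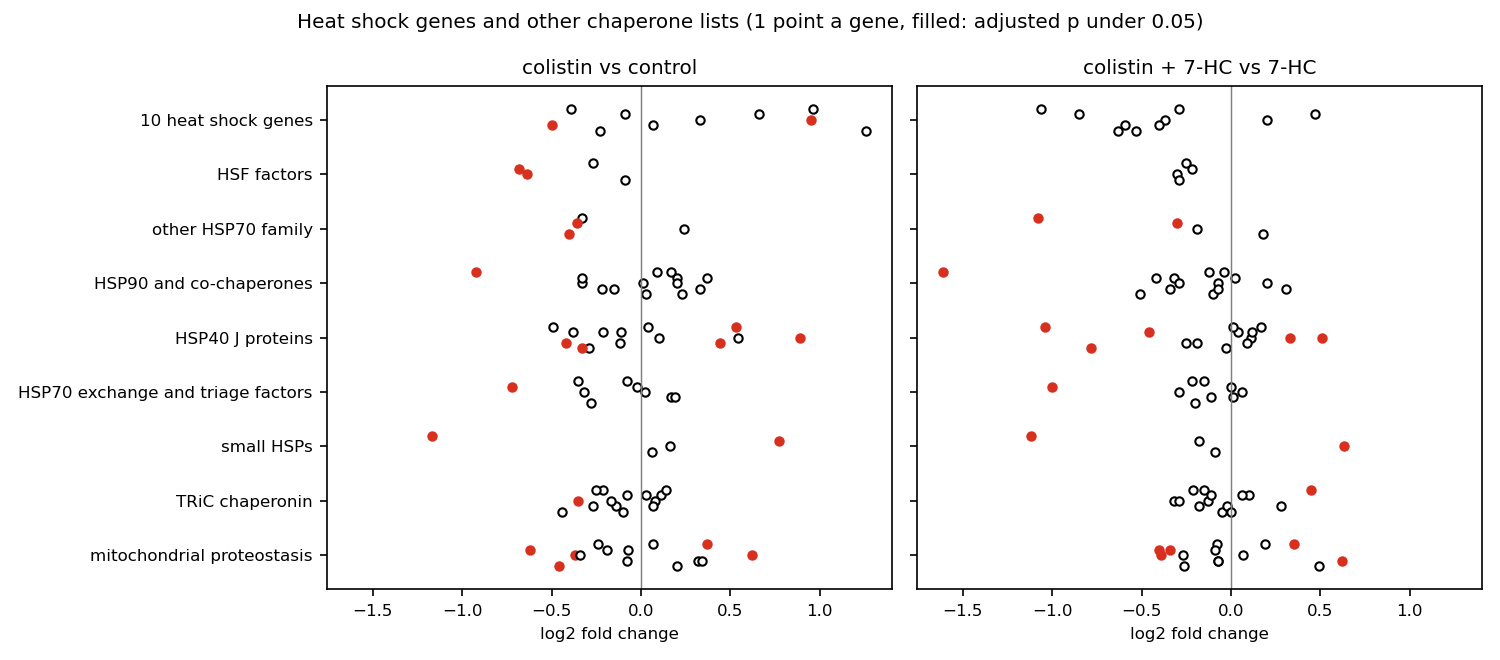
Log2 fold changes on the log2(FPKM + 0.5) scale of the 10 heat shock genes and of 8 other chaperone lists, 1 point per gene, for colistin against control (left) and colistin + 7-HC against 7-HC (right). Filled points passed an adjusted p under 0.05. Of the 77 genes in the other lists, 6 were higher and 13 lower in the left panel and 6 higher and 11 lower in the right panel. Of all genes tested, 32.7% were called in the comparison of the left panel and 31.1% in that of the right panel.

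The pattern of the 3 libraries with high values was also found in part of this wider system. All 3 libraries held the highest values of their groups for 11 of the 14 tested genes of the HSP90 list, among them Hsp90ab1, Stip1, Ahsa1, Chordc1 and Fkbp4, and for 7 of the 14 TRiC and prefoldin genes, against 7.99% of all genes. Stip1 encodes HOP, which passes clients between HSP70 and HSP90, and Ahsa1 the activator of the HSP90 ATPase. The pattern held for 2 of the 14 J-domain genes (Dnaja1 and Dnajb14), 1 of the 14 mitochondrial proteostasis genes (Clpp), 1 of the 4 small heat shock proteins (Hspb8), and none of the 4 heat shock factors, the 4 other HSP70 genes or the 9 exchange and triage factors.

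The genes most like Hspa1b across the 12 libraries were sought by the root mean square difference of log2(FPKM + 0.5), each gene centred on its own mean. Among members, Hspa1a was closest at 0.30, which includes whatever reads the copies share, followed by Hsp90aa1 (0.72), Dnajb1 (0.75) and Hsph1 (0.77). The 5 closest genes outside the members were Entpd4 (0.81), P4ha1 (0.81), Dnajb4 (0.82), Tpte (0.83) and Tmcc2 (0.84), all farther than those members. Of the remaining members, Hspa8 was at 0.80 and Hspb1 at 0.83. Hspe1 (0.97), Bag3 (1.04) and Hspd1 (1.08) were farther from Hspa1b than these 5 outside genes. For Hspd1 the 5 closest were Got2 and Mtx2 (0.09 each) and Trit1, Nars2 and Tfam (0.10 each), while its genomic neighbour Hspe1 was at 0.28. These distances are descriptions over libraries that share groups and treatments.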

How the data were processed

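RNA of 12 libraries labelled kidney, 3 for each of the 4 groups, was sequenced on the BGISEQ-500 platform. By the study's methods, reads were filtered with SOAPnuke and aligned to the reference genome with HISAT2 2.0.4 and to coding genes with Bowtie2 2.2.5. Expression was estimated by RSEM 1.2.12. The methods do not name the genome build. The study's methods, like the submitters' processing notes, also name DESeq2 1.4.5. The authors deposited 1 expression value per gene and library without naming the unit, and the values were taken as FPKM from their form (2 decimals, unequal sums of 517984 to 597354). Of 22899 genes listed, 5161 were blank in all libraries. Because these are not counts, log2(FPKM + 0.5) was tested with limma 3.58.1 (trended variance, R 4.3.3) on genes of at least 1 FPKM in at least 3 libraries, with all 12 libraries in 1 fit. Fold changes are on this scale, which understates changes of low genes. P-values were adjusted by Benjamini-Hochberg within each comparison. The scripts were tested on simulated data.

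The members and lists were chosen with earlier results of these data known. Genes outside the members were named by rule: from each of 8 chaperone lists the 2 largest rises and 2 largest falls called between colistin and control, with Hsf1 and Hsp90ab1, and the 5 genes most like Hspa1b and most like Hspd1. Stip1, Ahsa1, Chordc1, Dnaja1 and Clpp were named after their values were seen. The single marker genes named (Fgb, Alb, S100a8, Retnlg, Slc5a2 and Kap) come from the cell type marker lists and fall outside that rule. Promoter sequences and gene positions are from RefSeq and gene strands from GENCODE, both for GRCm38.p6. The alternatives were other pseudocounts and filters, no variance trend, only the groups compared, a replicate block, scaling by median ratios, the thresholds of the study, the sum of Hspa1a and Hspa1b, and each library left out. Leaving out the 3 high libraries together was added after seeing the data. Replicate numbers did not pair the libraries. One further list of kidney markers is not reported here.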

Additional observations from a re-analysis of the deposited data

How the results depend on the processing

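With each library left out in turn, the number of members called was 1 to 3 for colistin against control, 0 to 2 for colistin + 7-HC against 7-HC and against control, and 2 to 3 for colistin averaged over both 7-HC states. Of the 10764 genes tested, 2495 to 3841 were called for colistin against control and 2358 to 3603 for colistin + 7-HC against 7-HC. For colistin + 7-HC against control 1772 to 3088 were called, and for the averaged effect 4508 to 5246. Without colistin library 2, 7-HC library 1 and control library 2 together, the numbers of members called were 5, 3, 2 and 5, against 33.5%, 31.6%, 25.4% and 47.2% of all genes. For colistin + 7-HC against colistin the number was 3, against 4.04%. That alternative removes spread by construction, so its calls are no support for the estimates. Fitting only the groups compared gave 1 member for colistin + 7-HC against 7-HC and 2 for colistin + 7-HC against control. Of all 10764 genes, 3219 and 3422 were called in these fits. At a fold change of at least 2 and an adjusted p of at most 0.001, no member was called against control (0) or for the averaged effect (0). Of all 10764 genes, 633 met these thresholds for colistin against control and 880 for the averaged effect. The number of members called did not change by over 1.5 times under the other pseudocounts, filters, scaling and trend settings.

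The same replicate number did not mark libraries that moved together: 2 of the 18 same-numbered pairs correlated at over 0.1. With the replicate number as a block, 2 members were called for colistin against control and 2 for the averaged effect, where Hspe1 lost its call (adjusted p = 0.0635), as it did without the filter (0.068) and with scaling by median ratios (0.0581). The 2 counts with the block stand against 3197 and 4825 of the 10764 genes tested.

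Estimates that changed sign were all uncalled. Over the libraries left out in turn, the log2 fold change for colistin against control ran from -1.32 to 0.50 for Hspa1a, -1.08 to 0.66 for Hspa1b, 0.00 to 0.64 for Hspa8, -0.25 to 0.38 for Dnajb1 and -0.42 to 1.21 for Hspb1. For colistin + 7-HC against 7-HC it ran from -1.06 to 0.06 for Hsph1, -0.70 to 0.17 for Hsp90aa1 and -0.01 to 1.25 for Hspb1, and without the 3 high libraries it was 0.06 for Hsph1 and 0.17 for Hsp90aa1. For colistin + 7-HC against colistin it ran from -1.26 to 0.37 for Hspb1, -0.05 to 0.19 for Hspd1 and -0.30 to 0.10 for Hspe1, with 0.37 for Hspb1 and 0.10 for Hspe1 without the 3 high libraries. For 7-HC against control it ran from -1.57 to 0.00 for Hspa1a, -0.30 to 0.33 for Hspa8, -0.46 to 0.12 for Dnajb1, -0.61 to 0.56 for Hsph1, -0.57 to 0.37 for Hsp90aa1, -0.13 to 0.21 for Bag3 and -0.13 to 0.05 for Hspd1. There, scaling by median ratios gave 0.02 for Hsph1, 0.04 for Bag3 and 0.01 for Hspd1, and leaving out the 3 high libraries gave 0.10 for Bag3 and 0.08 for Hspd1. For the averaged effect Hspa8 ran from -0.18 to 0.14, with 0.03 under scaling and 0.13 without the 3 high libraries. For the interaction it ran from -1.56 to 0.26 for Hspa1a, -1.52 to 0.23 for Hspa1b, -0.74 to 0.89 for Hspb1 and -0.02 to 0.22 for Hspd1, with 1.16 for Hspb1 and 0.02 for Hspe1 without the 3 high libraries. The cause of these changes was not tested.

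Limits are the 3 libraries a group, the number of reads per library, which is not given, the unit, which was inferred, and the low level of Hspa1a, which reached 0.25 FPKM.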
